A study of Homo sapiens with 6 samples.

Results

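The genes described here encode 10 growth factor signalling components: the vascular endothelial growth factor (VEGF) ligands VEGFA, VEGFB, VEGFC and PGF, the platelet-derived growth factor (PDGF) ligands PDGFA, PDGFB and PDGFC, the fibroblast growth factor FGF2, the receptor FGFR1 and the secreted protein ANGPTL4. They were selected by gene symbol, and each matched 1 row of the expression table, giving 10 of 24108 rows. RNA-seq was performed on MDA-MB-231, an established human basal breast cancer line, in 2 groups of 3 samples. Both groups were transduced with lentivirus for 48 h and then selected for 24 h in 0.5 µg/ml puromycin. The shCtr cells carried a hairpin against luciferase, a gene that human cells lack, and the shZNF148 cells carried a hairpin against the zinc finger transcription factor ZNF148. The comparison asks which transcripts change when ZNF148 is depleted, in a line grown in culture. The labels do not say which ZNF148 hairpin was used. With 1 shZNF148 group, effects of the hairpin on other transcripts cannot be told apart from those of ZNF148 depletion.

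VEGF ligands act mainly on endothelial cells through the tyrosine kinase receptors FLT1, KDR and FLT4, with neuropilins as co-receptors. VEGFA is the principal driver of new blood vessels and a textbook target of hypoxia, whereas VEGFC is best known for the growth of lymphatic vessels. PDGF ligands recruit pericytes and fibroblasts through PDGFRA and PDGFRB, and FGF2 binds FGF receptors together with heparan sulfate. Breast cancer cells commonly secrete several of these ligands, so their transcripts are read here in the sending cell rather than the responding one.

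Expression was measured as FPKM (fragments scaled to transcript length and to library size), so levels of different genes are per length. The read number behind each library is unknown, but steps between low values placed the libraries at 0.806 to 1.13 of the depth of shCtr replicate 1. ZNF148 itself stood at 3.72, 4.36 and 4.30 FPKM in shCtr and at 0.914, 0.282 and 0.834 FPKM in shZNF148. Its log2 fold change was -1.63 (SE 0.18, limma adjusted p = 0.00990), and the adjusted p was 0.0603 without shCtr replicate 1 and 0.0568 without shCtr replicate 3. With a shZNF148 mean of 0.677 FPKM, it reached the filter described next through the shCtr samples. Log2 fold changes below are shZNF148 minus shCtr on log2(FPKM + 1), with adjusted p-values from limma over the 11777 rows that averaged 1 FPKM or more. A gene is said to have risen or fallen at an adjusted p under 0.05, and is termed called when it also changed by more than 1.5-fold on that log2(FPKM + 1) scale. The deposited labels do not say whether the 3 samples of a group came from separate cultures, so the p-values measure the spread between these samples, which may be technical.

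Marker lists were read beside these results, and their part in them was not tested. The 6 markers of the line (VIM, CD44, EGFR, AXL, CAV1 and MSN) were present in every sample but lower in shZNF148, summing to between 3175 and 3288 FPKM in shCtr and between 2633 and 2730 FPKM in shZNF148. Of these, CD44 (adjusted p = 0.0185), EGFR (adjusted p = 0.0200) and AXL (adjusted p = 0.0364) fell, and EGFR was called. The 7 luminal markers summed to between 37.9 and 146 FPKM in shCtr and between 38.3 and 145 FPKM in shZNF148. ESR1 was listed at 0 throughout and PGR, FOXA1 and CDH1 were below the filter, whereas EPCAM, GATA3 and a joined row with ERBB2 were measured and did not pass the test. That joined row stood at 126 and 125 FPKM in replicate 2 of shCtr and shZNF148, and between 20.1 and 24.8 FPKM in the other samples. The 7 fibroblast and pericyte markers summed to between 21.1 and 25.5 FPKM in shCtr and between 13.8 and 14.8 FPKM in shZNF148. Most of this was CSPG4 and PDGFRB. CSPG4 fell and was called (log2 fold change -0.76, adjusted p = 0.0158). RGS5 overlapped between groups, at 0.991 to 1.19 FPKM in shCtr and 1.07 to 2.00 FPKM in shZNF148. In shCtr replicate 2, DCN stood at 2.82, THY1 at 0.798 and LUM at 0.323 FPKM, and in every other sample all 3 were at or below 0.0586 FPKM. The 5 leukocyte markers summed to between 112 and 130 FPKM in shCtr and between 76.0 and 93.1 FPKM in shZNF148. Nearly all of this was CD68, which fell (log2 fold change -0.52, adjusted p = 0.0233). PTPRC and CD3E were at or below 0.115 FPKM. CD14 was below the filter, at 0.470 to 0.863 FPKM in shCtr and 0.750 to 2.01 FPKM in shZNF148. LYZ measured 0.598, 0.471 and 0.812 FPKM in shCtr and 2.34, 4.97 and 2.23 FPKM in shZNF148. It reached the filter through the shZNF148 samples alone, so nothing is read from its test.

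Of the 10 genes, PDGFA and FGFR1 fell after ZNF148 depletion, and neither passed 1.5-fold on log2(FPKM + 1). For PDGFA the ratio of mean FPKM was 0.654, which is past 1.5-fold without the pseudocount. VEGFA, VEGFB and PDGFC had lower values in every shZNF148 sample than in any shCtr sample without passing the adjusted threshold, and ANGPTL4 had higher values in every shZNF148 sample, likewise without passing it. VEGFC and PGF overlapped between groups, and PDGFB and FGF2 were too low to test. Thus 8 of 10 genes were tested, of which 6 had a lower and 2 a higher mean log2 value, where 49.1% of all tested rows were lower. None of the 8 was called, against 5.49% of all tested rows (1.83% higher and 3.66% lower). Of all calls 33.4% were higher, and 53.1% when each library was rescaled to the same summed FPKM. The 2 that fell compare with 8.13% of all tested rows past the adjusted threshold in that direction, and the 0 that rose with 5.46%. At an unadjusted p under 0.05 there were 5 lower genes, against 17.8% of all rows, and 1 higher gene, against 16.0%. The median log2 fold change of the 8 genes was -0.21, and that of all tested rows was 0.0061. The groups did not overlap for 5 lower genes, against 21.0% of all tested rows, and for 1 higher gene, against 20.0% (41.0% in either direction). For each of those 6 the exact two-sided permutation p was 0.1, the smallest that 3 samples against 3 can give. Summed FPKM was itself apart, at 497730 to 507312 in shCtr and 469594 to 488173 in shZNF148. Relative to these sums VEGFA and PDGFC overlapped between groups, so their separation depends on the scaling.

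**Figure D1:**
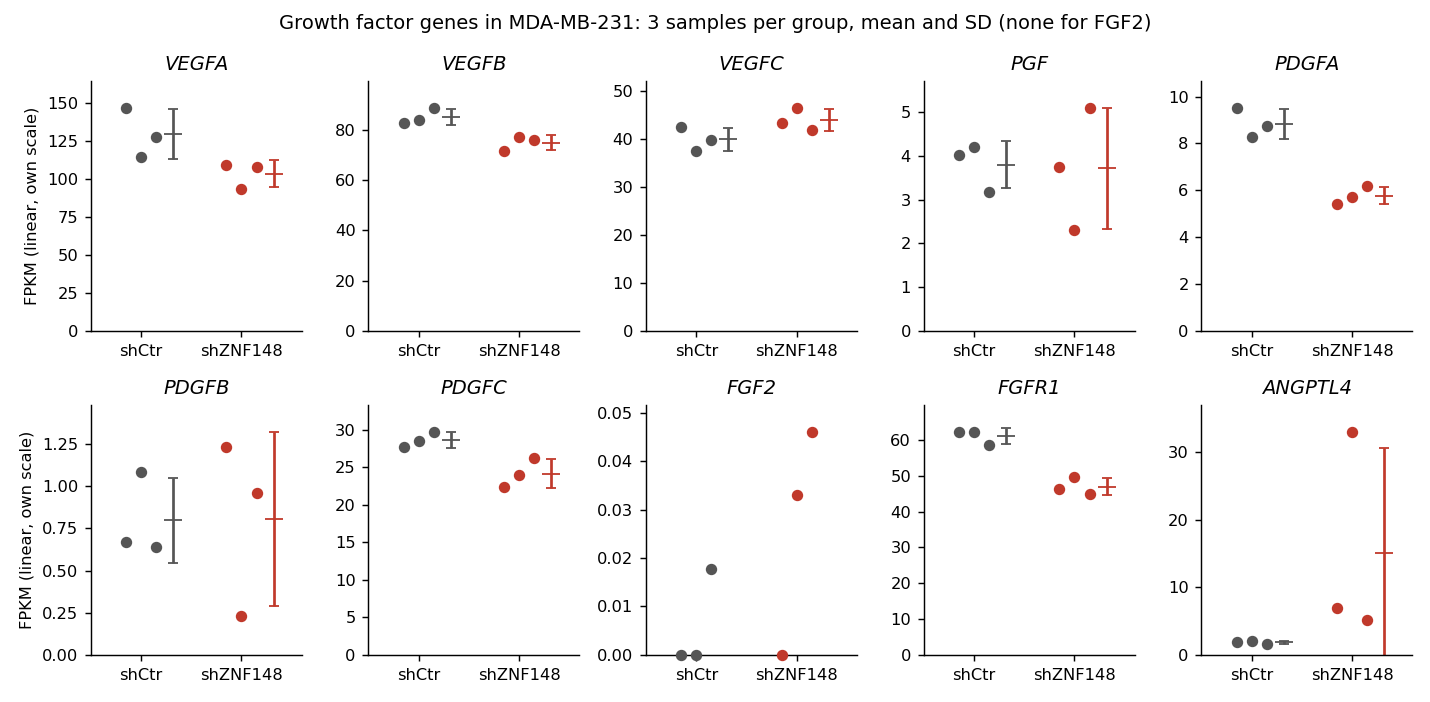
Expression of the 10 growth factor genes in FPKM, each panel on its own linear axis from 0, with 1 point per sample (shCtr grey, shZNF148 red) and the mean with SD beside the points except for FGF2. The shZNF148 points lie below all shCtr points for VEGFA, VEGFB, PDGFA, PDGFC and FGFR1 and above them for ANGPTL4, whose SD bar reaches below 0 and is cut at the axis.

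The 10 transcripts covered a wide range of levels. In shCtr the order of mean FPKM was VEGFA, VEGFB, FGFR1, VEGFC, PDGFC, PDGFA, PGF, ANGPTL4, PDGFB and FGF2. None of the 9 neighbouring pairs overlapped between samples, so each step of that order exceeded the spread within the group. In shZNF148 the same first 5 genes led, but FGFR1 and VEGFC overlapped, at 44.9 to 49.7 and 41.9 to 46.5 FPKM respectively. ANGPTL4 moved to the sixth place with a range of 5.24 to 33.1 FPKM, which overlapped those of both PDGFC and PDGFA. The remaining 6 neighbouring pairs were apart.

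VEGFA was the most abundant of the 10 transcripts. Its gene occupies chromosome 6, 43770184 to 43786487, plus strand, in GRCh38 (GENCODE annotation, as for all gene positions below). It measured 147, 115 and 127 FPKM in shCtr and 109, 93.3 and 108 FPKM in shZNF148. All shZNF148 samples were below all shCtr samples, although shCtr replicate 2 came close to the shZNF148 range. Mean expression was 129 ± 16.1 FPKM (SD, n = 3) in shCtr and 103 ± 8.74 FPKM (SD, n = 3) in shZNF148. The log2 fold change was -0.32 (SE 0.11, 95% interval -0.57 to -0.06) with an adjusted p of 0.0946.

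VEGFB, a ligand of FLT1 linked more to tissue metabolism and survival than to vessel growth, occupies chromosome 11, 64234584 to 64239264, plus strand. Its values were 82.7, 83.8 and 88.6 FPKM in shCtr and 71.5, 77.1 and 75.8 FPKM in shZNF148. The groups were apart by a small margin, with a log2 fold change of -0.18 (SE 0.06, 95% interval -0.33 to -0.04, adjusted p = 0.0894). PGF, a further ligand of FLT1, on chromosome 14 from 74941834 to 74955626 (minus strand), was the least abundant VEGF-type ligand. It measured 4.02, 4.19 and 3.18 FPKM in shCtr and 3.74, 2.32 and 5.08 FPKM in shZNF148. The shZNF148 samples lay on both sides of the shCtr range, and the log2 fold change of -0.06 had a 95% interval of -0.60 to 0.47 (adjusted p = 0.867). Its sign turned to 0.17 without shZNF148 replicate 2 (adjusted p = 0.490).

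VEGFC, the lymphatic ligand, did not share the lower values of VEGFA and VEGFB. It measured 42.5, 37.6 and 39.7 FPKM in shCtr and 43.4, 46.5 and 41.9 FPKM in shZNF148. The groups overlapped, since shZNF148 replicate 3 was below shCtr replicate 1. The log2 fold change was 0.14 (SE 0.07, 95% interval -0.04 to 0.31, adjusted p = 0.240). Within each library the composition of the VEGF-type ligand transcripts can be read without regard to scaling. VEGFC made up 15.4%, 15.6% and 15.4% of the summed VEGFA, VEGFB, VEGFC and PGF FPKM in shCtr and 19.1%, 21.2% and 18.2% in shZNF148. The ratio of VEGFA to VEGFC was 3.45, 3.05 and 3.20 in shCtr and 2.51, 2.01 and 2.57 in shZNF148. Both quantities were apart between the groups, and shZNF148 replicate 2 was the farthest from shCtr in each. These ratios are given as a description and were not tested.

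VEGFC occupies chromosome 4, 176683538 to 176792922, minus strand. The window from 250 bases before to 50 bases after its start site (RefSeq, GRCh38.p14, chr4:176792873-176793172, minus strand) is shown because ZNF148 is known to bind GC-rich DNA and this window is dense in such letters. Capitals mark CCCTCCC or its reverse complement GGGAGGG, and CCGCCC or its reverse complement GGGCGG, searched on both strands, and where these overlap they run together.
VEGFC: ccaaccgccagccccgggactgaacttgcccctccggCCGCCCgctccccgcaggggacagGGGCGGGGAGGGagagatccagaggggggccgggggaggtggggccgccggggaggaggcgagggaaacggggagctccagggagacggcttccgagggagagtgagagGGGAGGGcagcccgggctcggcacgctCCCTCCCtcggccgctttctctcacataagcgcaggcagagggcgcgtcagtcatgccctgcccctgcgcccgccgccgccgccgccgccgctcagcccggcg
The window had 3 matches to CCCTCCC and 2 to CCGCCC, and a GC content of 76.3%. Among 35116 RefSeq promoter windows of the same length, 26.6% held CCCTCCC and 45.0% held CCGCCC, and the median GC content was 58.7%. Windows were given for 6 of the 10 genes (VEGFB, VEGFC, PGF, PDGFA, FGF2 and ANGPTL4). That of VEGFB, not printed, had 1 match to CCCTCCC and 9 to CCGCCC, and a GC content of 84.7%. A match describes letters in the window and is not a measured binding site.

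The VEGF receptors fell into a measured and an almost silent set. Of 5 receptors and co-receptors listed, the neuropilins NRP1 and NRP2 were tested. NRP2, which serves as a co-receptor for VEGFC as well as for semaphorins, measured 19.2, 15.9 and 17.7 FPKM in shCtr and 8.52, 3.67 and 8.38 FPKM in shZNF148. It fell with a log2 fold change of -1.31 (SE 0.28, adjusted p = 0.0313) and was called. NRP1, which binds VEGFA, measured 51.6, 56.9 and 50.9 FPKM in shCtr and 63.8, 86.4 and 59.1 FPKM in shZNF148, apart and higher but with an adjusted p of 0.124 (log2 fold change 0.37). FLT1, KDR and FLT4, the signalling receptors, were below the filter. FLT1 and FLT4 were at or near 0 throughout. Of the endothelial markers listed, PECAM1, CDH5, VWF, TEK and TIE1 were at or below 0.131 FPKM in every sample. KDR stood at 0.402 to 0.475 FPKM in shCtr and 0.257 to 0.452 FPKM in shZNF148. CLDN5, also below the filter, was at 0.0488 to 0.101 FPKM in shCtr and higher in shZNF148, at 0.132 to 0.469 FPKM. The endothelial list still summed to between 48.2 and 56.9 FPKM in shCtr and between 16.5 and 27.5 FPKM in shZNF148, because of ESAM, a junctional adhesion molecule, and ROBO4. ESAM measured 40.4, 37.95 and 36.3 FPKM in shCtr and 13.7, 4.79 and 10.3 FPKM in shZNF148. ESAM fell and was called (log2 fold change -1.99, adjusted p = 0.0182), whereas ROBO4 did not pass (adjusted p = 0.469). The VEGFD gene, under its older symbol FIGF, occurs only in a row joined with its neighbour PIR. That row rose from 30.8, 20.7 and 25.3 FPKM to 38.6, 55.3 and 40.9 FPKM (log2 fold change 0.79, adjusted p = 0.0382) and cannot be assigned to either gene. With samples left out in turn, NRP2 passed only without shZNF148 replicate 2 or 3 (highest adjusted p 0.115), and the joined row passed in none of the 6 cases (0.0513 to 0.112).

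PDGFA encodes the ligand of PDGFRA and gave the clearest decrease among the PDGF genes. It measured 9.52, 8.27 and 8.73 FPKM in shCtr and 5.43, 5.73 and 6.18 FPKM in shZNF148. The groups were well apart, with the highest shZNF148 sample below the lowest shCtr sample by more than either group's SD. Mean expression fell by 34.6%, from 8.84 ± 0.633 FPKM (SD, n = 3) to 5.78 ± 0.379 FPKM (SD, n = 3). The log2 fold change was -0.54 (SE 0.09, 95% interval -0.75 to -0.33) with an adjusted p of 0.0198. On this scale, with its pseudocount, PDGFA was short of 1.5-fold, whereas the ratio of mean FPKM (0.654) was past it. In bulk RNA, fewer cells expressing the gene and less RNA per cell cannot be told apart. The adjusted p was 0.0903 without shCtr replicate 1, 0.0515 without shCtr replicate 2, 0.0827 without shCtr replicate 3 and 0.0572 without shZNF148 replicate 1.

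PDGFA occupies chromosome 7, 497258 to 520296, minus strand, and RefSeq gives 4 start site windows for it. The one printed (GRCh38.p14, chr7:519797-520096, minus strand) was picked after its letters were seen, because it holds a run of GC boxes just before the start site beside a CCCTCCC match. Capitals mark the same letters as for VEGFC.
PDGFA: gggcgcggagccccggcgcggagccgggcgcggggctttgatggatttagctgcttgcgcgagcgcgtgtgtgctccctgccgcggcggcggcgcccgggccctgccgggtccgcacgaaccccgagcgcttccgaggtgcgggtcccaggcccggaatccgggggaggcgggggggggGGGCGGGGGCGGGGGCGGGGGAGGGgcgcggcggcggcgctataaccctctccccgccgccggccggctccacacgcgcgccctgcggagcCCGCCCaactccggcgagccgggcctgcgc
This window had 1 match to CCCTCCC and 4 to CCGCCC, and its GC content was 81.7%. The PDGFA windows not printed had 0, 0 and 1 matches to CCCTCCC and 4, 1 and 5 to CCGCCC. Their GC contents were 71.7%, 70.3% and 72.7%.

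PDGFC, a ligand of PDGFRA that is secreted in latent form and needs proteolytic release, occupies chromosome 4, 156760454 to 156971799, minus strand. It was the most abundant PDGF transcript, at 27.6, 28.5 and 29.7 FPKM in shCtr and 22.3, 24.0 and 26.2 FPKM in shZNF148. The groups were apart and lower in shZNF148, with a log2 fold change of -0.24 (SE 0.08, 95% interval -0.42 to -0.05, adjusted p = 0.0847). The ratio of PDGFC to PDGFA was 2.90, 3.44 and 3.41 in shCtr and 4.11, 4.18 and 4.24 in shZNF148, so the larger relative loss was on the PDGFA side in every sample. PDGFB, on chromosome 22 from 39223359 to 39244982 (minus strand), encodes the ligand of PDGFRB. It measured 0.670, 1.09 and 0.637 FPKM in shCtr and 1.23, 0.231 and 0.959 FPKM in shZNF148, which places the shCtr samples inside the range of the shZNF148 samples. Its mean was under 1 FPKM, and it was not tested.

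On the receiving side, PDGFRA was below the filter. PDGFRB measured 6.67, 5.41 and 5.84 FPKM in shCtr and 5.84, 2.00 and 5.13 FPKM in shZNF148, with overlapping groups (log2 fold change -0.47, adjusted p = 0.313). PDGFRL, a receptor-like protein without a kinase domain, measured 2.44, 2.54 and 2.07 FPKM in shCtr and 1.17, 0.413 and 1.15 FPKM in shZNF148 (log2 fold change -0.84, adjusted p = 0.0397). Its shZNF148 mean was 0.908 FPKM, so it reached the filter through the shCtr samples alone and nothing is read from its test. Among 11 genes listed for the processing of VEGF and PDGF ligands, 7 were tested, of which 2 fell and none rose. All are proteases except CCBE1, which was tested and did not pass. Over all tested rows 8.13% fell and 5.46% rose. The proteases that fell were PLAT, the tissue plasminogen activator known to release active PDGFC, and PLAU, the urokinase. PLAT measured 110, 112 and 98.9 FPKM in shCtr and 70.8, 56.7 and 70.8 FPKM in shZNF148 (log2 fold change -0.69, adjusted p = 0.0172). PLAU had a smaller log2 fold change of -0.30 (adjusted p = 0.0313). With samples left out in turn, PLAT passed whenever a shZNF148 sample was left out and never when a shCtr sample was (highest adjusted p 0.0828), and PLAU passed only without shZNF148 replicate 2 (highest 0.125).

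FGF2, the basic fibroblast growth factor, was at the limit of detection. The gene occupies chromosome 4, 122826682 to 122898236, plus strand. It was listed at 0, 0 and 0.0178 FPKM in shCtr and at 0, 0.0331 and 0.0461 FPKM in shZNF148. After multiplication by relative depth, the 3 values above 0 stood at 1, 1.98 and 1.99 times the smallest, which are steps close to whole multiples. No difference was detectable at this depth. NUDT6 overlaps FGF2 on the opposite strand and measured 6.74, 6.60 and 8.15 FPKM in shCtr and 4.98, 6.30 and 4.93 FPKM in shZNF148. Whether counting used strand is not given in the sources used here, so reads of the overlap cannot be assigned to 1 of the genes with certainty.

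FGFR1, a tyrosine kinase receptor for FGF2 and many other FGFs, was by contrast abundant and fell. It occupies chromosome 8, 38400215 to 38468834, minus strand, and LETM2 overlaps it on the other strand. It measured 62.3, 62.4 and 58.5 FPKM in shCtr and 46.3, 49.7 and 44.9 FPKM in shZNF148. The groups were apart, and each was tight. The mean fell by 23.1%, from 61.1 ± 2.23 FPKM (SD, n = 3) to 47.0 ± 2.44 FPKM (SD, n = 3), with a log2 fold change of -0.37 (SE 0.07, 95% interval -0.53 to -0.22, adjusted p = 0.0217). The adjusted p was 0.0961 without shCtr replicate 1, 0.0680 without shCtr replicate 2, 0.0770 without shCtr replicate 3 and 0.0613 without shZNF148 replicate 1.

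The other FGF receptors were lower in level or did not pass the test. FGFR4 measured 3.13, 2.46 and 2.53 FPKM in shCtr and 1.69, 2.03 and 2.17 FPKM in shZNF148 (log2 fold change -0.32, adjusted p = 0.127). FGFRL1, which binds FGFs but has no kinase domain, was close to FGFR1 in level, at 43.4 to 53.7 FPKM in shCtr and 46.6 to 54.9 FPKM in shZNF148. Its log2 fold change was 0.07 (adjusted p = 0.673) and was -0.0073 without shCtr replicate 3 (adjusted p = 0.973). FGFR2 was listed at 0 in every sample and FGFR3 was below the filter. Of 21 other FGF ligands listed, 2 reached the filter. FGF5 measured 1.39, 1.74 and 1.5 FPKM in shCtr and 0.680, 0.257 and 0.625 FPKM in shZNF148 (log2 fold change -0.75, adjusted p = 0.0327). It reached the filter through the shCtr samples alone and dropped out when any of them was left out, so nothing is read from its test. The adjusted p was also 0.0605 without shZNF148 replicate 1, 0.0530 without shZNF148 replicate 3 and 0.0533 with a pseudocount of 0.1 FPKM.

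**Figure D2:**
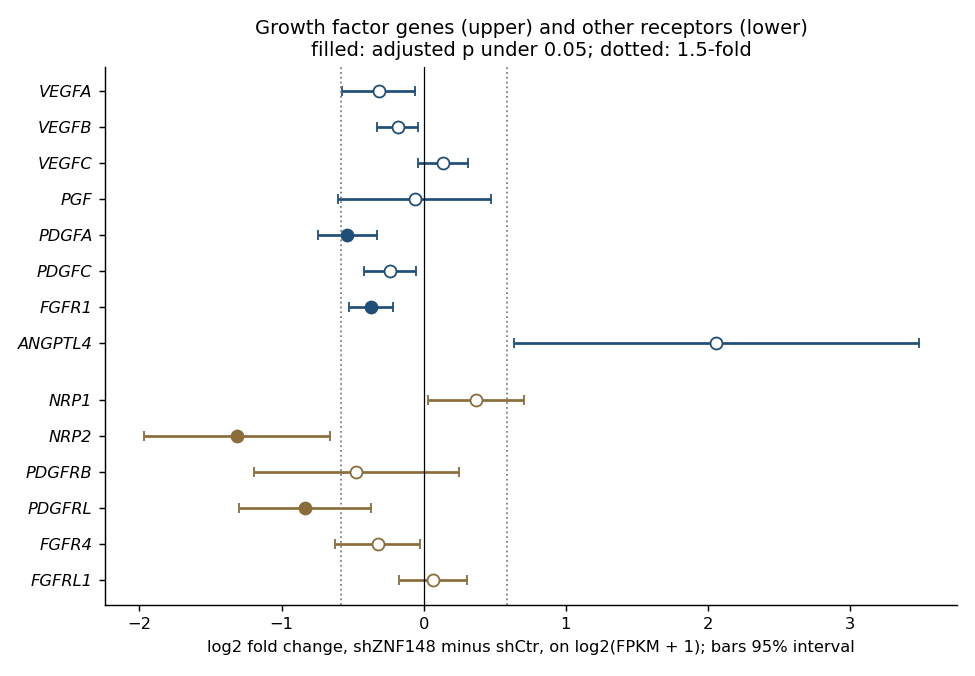
Log2 fold changes (shZNF148 minus shCtr on log2(FPKM + 1)) with 95% intervals for the 8 tested growth factor genes above and 6 other receptors or co-receptors below, filled where the adjusted p was under 0.05. Among the growth factor genes PDGFA (-0.54) and FGFR1 (-0.37) are filled, and the widest interval is that of ANGPTL4 (0.63 to 3.48).

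Downstream of these receptors, a list was read of signalling adaptors with partners that are not adaptors (SOS1, SOS2, PTPN11 and PLCG1). All 13 genes of this list were tested, and none passed the adjusted threshold, where 13.6% of all tested rows did. SHC1, the most abundant of them, measured 69.3, 73.4 and 63.7 FPKM in shCtr and 78.0, 73.8 and 73.2 FPKM in shZNF148 (log2 fold change 0.13, adjusted p = 0.263). Among 14 feedback inhibitors and ETS targets of the FGF and ERK pathway, 13 were tested, of which 1 rose and 1 fell. The shares over all tested rows were 5.46% and 8.13%. SPRY1, an inhibitor of receptor tyrosine kinase signalling, rose from 3.82, 4.65 and 4.33 FPKM to 7.05, 7.61 and 7.24 FPKM (log2 fold change 0.66, adjusted p = 0.0146). Its relatives SPRY2 and SPRY4 had log2 fold changes of 0.45 (adjusted p = 0.111) and 0.31 (adjusted p = 0.0616). DUSP6, the phosphatase that removes the activating marks of ERK, fell from 54.2, 35.0 and 51.8 FPKM to 28.8, 25.4 and 29.1 FPKM (log2 fold change -0.72, adjusted p = 0.0394). The 2 called inhibitors of this list thus moved in opposite directions. With samples left out in turn, SPRY1 did not pass without shCtr replicate 1 or 3 (highest adjusted p 0.0710), and DUSP6 passed only without shCtr replicate 2 (highest 0.128).

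Heparan sulfate proteoglycans hold FGFs, VEGFA and PDGFs at the cell surface and in the matrix. Of 22 such genes and their enzymes, 15 were tested, 4 fell and none rose, where 8.13% and 5.46% of all tested rows did. SDC1, a syndecan of the cell surface, fell from 38.4, 39.4 and 33.8 FPKM to 20.5, 16.6 and 20.0 FPKM (log2 fold change -0.93, adjusted p = 0.00990). The basement membrane proteoglycans AGRN and HSPG2 had log2 fold changes of -0.71 (adjusted p = 0.0212) and -0.60 (adjusted p = 0.0337). HS2ST1, the sulfotransferase that makes an FGF-binding mark on these chains, had a log2 fold change of -0.44 (adjusted p = 0.0475). The median of the 15 tested genes was nevertheless -0.10. With samples left out in turn, SDC1 did not pass without shCtr replicate 1 (adjusted p = 0.0636). AGRN passed only without shZNF148 replicate 2 or 3 (highest adjusted p 0.0935), HSPG2 only without shZNF148 replicate 2 (highest 0.119) and HS2ST1 in none of the 6 cases (0.0618 to 0.150).

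On the log2 scale ANGPTL4 showed the widest difference of the 8 tested growth factor genes and the largest SE. It encodes a secreted inhibitor of lipoprotein lipase that also acts on vessels and is a classical target of the PPAR nuclear receptors and of hypoxia. It measured 1.98, 2.01 and 1.61 FPKM in shCtr and 6.95, 33.1 and 5.24 FPKM in shZNF148. All shZNF148 samples were above all shCtr samples, and shZNF148 replicate 2 was far above the others. The means were 1.87 ± 0.221 FPKM (SD, n = 3) and 15.1 ± 15.6 FPKM (SD, n = 3), a ratio of 8.08 that rests on this library. The log2 fold change was 2.06 (SE 0.60, 95% interval 0.63 to 3.48) with an adjusted p of 0.0645, and 0.671% of tested rows had a larger absolute change. Without shZNF148 replicate 2 the log2 fold change was 1.30 with an adjusted p of 0.00839, which passed both thresholds. The adjusted p was 0.0468 with a pseudocount of 0.1 FPKM, 0.0478 with libraries rescaled to the same sum and 0.0446 with rows at 0 left out, and it ranged up to 0.165 without single samples. The same library had the lowest ZNF148 value (0.282 FPKM), which is a low value in 1 library, and a relation between the genes was not tested.

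ANGPTL4 occupies chromosome 19, 8363289 to 8374370, plus strand. Its start site window (RefSeq, GRCh38.p14, chr19:8363905-8364204, plus strand) is shown for contrast with the more GC-rich windows of VEGFC and PDGFA, with the same capitals. The printed windows were chosen for their letters, so no difference between genes is read from them.
ANGPTL4: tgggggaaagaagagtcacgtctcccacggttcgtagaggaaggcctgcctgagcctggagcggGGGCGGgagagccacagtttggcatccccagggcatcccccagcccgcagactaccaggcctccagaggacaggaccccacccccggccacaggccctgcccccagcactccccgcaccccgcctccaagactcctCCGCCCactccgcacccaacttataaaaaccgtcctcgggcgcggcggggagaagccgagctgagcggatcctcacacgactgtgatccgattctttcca
The window had no match to CCCTCCC and 2 to CCGCCC, and a GC content of 66.3%. It also had 1 match to ACGTG, the core letters of the hypoxia response element, and 1 to TATAAA, which 21.4% and 11.5% of all windows held.

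Several genes of a lipid list drawn up to accompany ANGPTL4 had their highest value in the same library, but PPARA, PPARD and PPARG did not. The share of all tested rows with their highest value there was not counted. Of 9 PPAR-type lipid genes, all were tested, 1 rose and 2 fell, beside 5.46% and 8.13% of all tested rows. SLC25A20, which carries acylcarnitines into mitochondria, rose from 3.12, 2.74 and 2.78 FPKM to 4.59, 8.38 and 5.11 FPKM (log2 fold change 0.82, adjusted p = 0.0424). PLIN2, which coats lipid droplets, measured 47.1, 52.3 and 47.6 FPKM in shCtr and 75.3, 150.0 and 61.5 FPKM in shZNF148 (log2 fold change 0.84, adjusted p = 0.107). PDK4, CPT1A and ACADVL, which act in the switch to fatty acid oxidation and in its first steps, had log2 fold changes of 1.03 (adjusted p = 0.192), 0.62 (adjusted p = 0.0549) and 0.57 (adjusted p = 0.116). In each of these genes shZNF148 replicate 2 was the highest of all samples. The receptors themselves had lower values, with PPARG at a log2 fold change of -0.51 (adjusted p = 0.0133) and PPARD at -0.29 (adjusted p = 0.0273). With samples left out in turn, SLC25A20 and PPARD passed only without shZNF148 replicate 2 (highest adjusted p 0.124 and 0.111), and PPARG did not pass without shCtr replicate 1 or 3 (highest 0.0710).

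**Figure D3:**
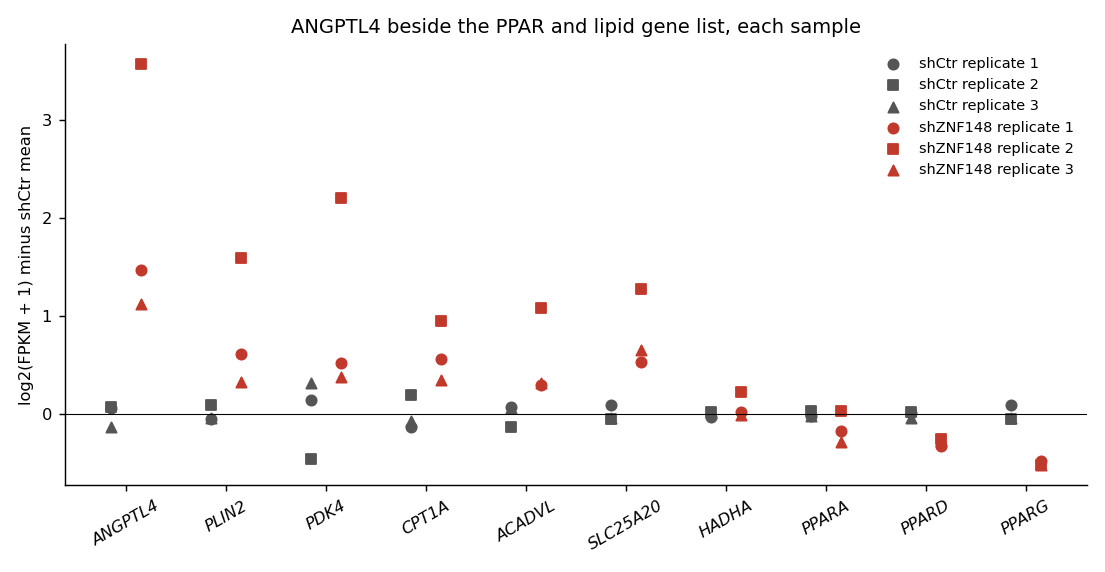
Log2(FPKM + 1) of ANGPTL4 and the 9 PPAR-type lipid genes in each sample, relative to the shCtr mean of the gene (shCtr grey, shZNF148 red, 1 symbol per replicate number). The red square of shZNF148 replicate 2 is the highest point for ANGPTL4 (33.1 FPKM), PLIN2 (150.0 FPKM) and SLC25A20 (8.38 FPKM), while the shZNF148 points of PPARG and PPARD lie below 0.

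Of 11 angiopoietins, their receptors and other angiopoietin-like genes, 2 reached the filter. ANGPT1, the ligand that activates the endothelial receptor TEK, measured 0.353, 0.523 and 0.567 FPKM in shCtr and 2.42, 2.79 and 1.68 FPKM in shZNF148 (log2 fold change 1.14, adjusted p = 0.0158). It reached the filter through the shZNF148 samples alone, so nothing is read from its test. Of 9 secreted angiogenesis inhibitors and relatives of them, 6 were tested and 1 rose, where 5.46% of all tested rows did. THBS2 and VASH1 had shZNF148 means of 0.743 and 0.996 FPKM. Both reached the filter through the shCtr samples alone, so nothing is read from their tests. TIMP3, a matrix metalloproteinase inhibitor that also blocks the binding of VEGFA to KDR, rose from 60.3, 63.2 and 56.8 FPKM to 128, 166 and 115 FPKM (log2 fold change 1.15, adjusted p = 0.0108). TIMP3 did not pass without shCtr replicate 1 or 3 (highest adjusted p 0.0661).

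VEGFA and ANGPTL4 are both known hypoxia targets, and the hypoxia list moved in both directions. Of 19 hypoxia pathway genes and targets, 18 were tested, EGLN3 and a joined row rose and 2 genes fell. Over all tested rows 5.46% rose and 8.13% fell. The median log2 fold change of the list was 0.04. EPAS1, which encodes the oxygen-regulated factor HIF-2α, fell from 14.3, 15.4 and 12.2 FPKM to 7.84, 7.70 and 7.74 FPKM (log2 fold change -0.77, adjusted p = 0.0111). HIF1A had a log2 fold change of -0.23 (adjusted p = 0.182). NDRG1, a hypoxia-induced gene, fell with a log2 fold change of -0.51 (adjusted p = 0.0301). EGLN3, a prolyl hydroxylase that marks HIF proteins for decay, had a log2 fold change of 0.38 (adjusted p = 0.0458). The joined row holds EGLN2 with MIA, RAB4B and their read-through transcripts, and its log2 fold change of 0.33 (adjusted p = 0.0441) cannot be assigned to any of them. With samples left out in turn, EPAS1 did not pass without shCtr replicate 1 (adjusted p = 0.0678) and NDRG1 passed only without shZNF148 replicate 2 (highest adjusted p 0.115). EGLN3 (0.0529 to 0.151) and the joined row (0.0634 to 0.122) passed in none of the 6 cases.

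Over the 13 pathway lists together, 92 of 148 genes were tested, and 14 were called, of which 5 were higher and 9 lower. These include PDGFRL, FGF5 and ANGPT1, which reached the filter through 1 group. Among the 87 list genes with a mean of 1 FPKM or more in both groups, 11 were called, 4 higher and 7 lower. This is 12.6% of them, beside 5.06% of all 11414 rows that met the same condition, which was set after the values were seen. Both counts of calls include the joined row of FIGF and PIR, which cannot be assigned to either gene. The lists themselves were chosen with earlier results of these data known. The median log2 fold change over the 87 genes was 0.04. The number called over the lists was 0 without shCtr replicate 1, 6 without shCtr replicate 2, 2 without shCtr replicate 3 and 5 without shZNF148 replicate 1.

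**Figure D4:**
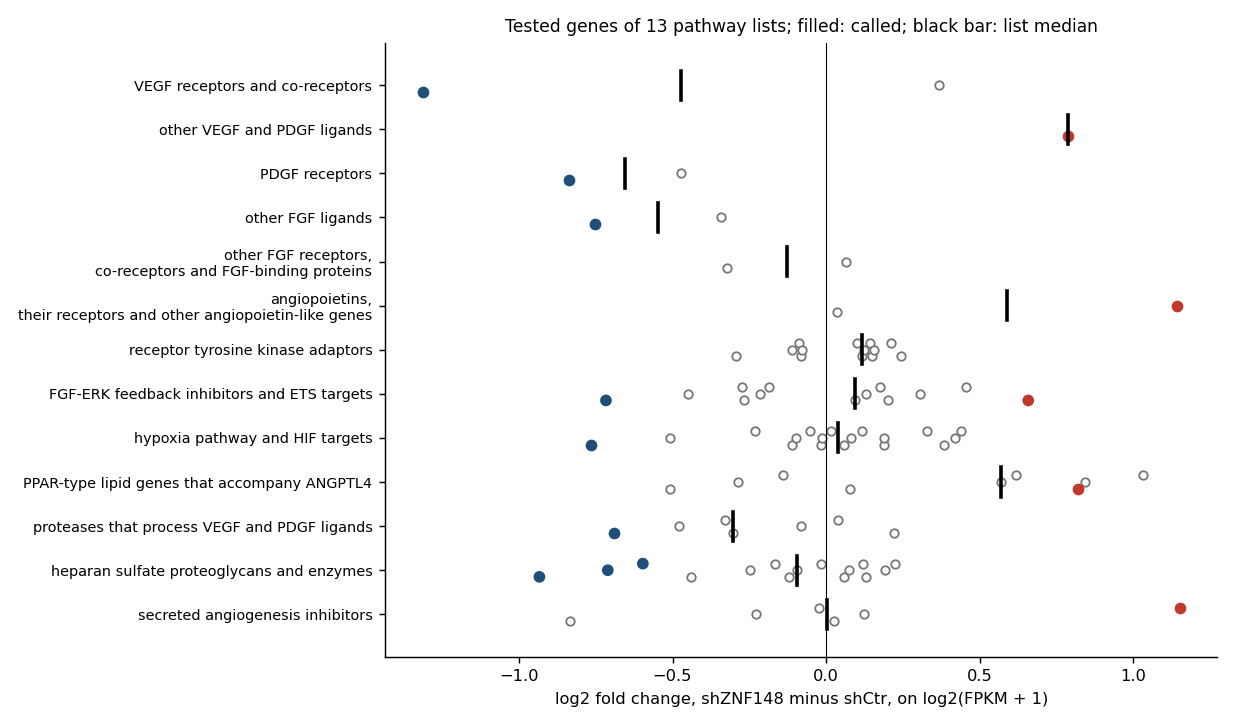
Log2 fold changes (shZNF148 minus shCtr on log2(FPKM + 1)) of the 92 tested genes of 13 pathway lists, 1 point per gene, with a black bar at each list median and filled points for called genes (red higher, blue lower), including PDGFRL (-0.84), FGF5 (-0.75) and ANGPT1 (1.14), which reached the filter through 1 group. NRP2 (-1.31) is the leftmost point and TIMP3 (1.15) the rightmost, and the 13 genes of the adaptor list hold no filled point.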

How the data were processed

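Total RNA of 6 MDA-MB-231 samples was sequenced on Illumina instruments. The deposited data are 1 FPKM table, normalised by the authors, whose 6 value columns were all used (0 left over). The submitters' processing notes name bcl2fastq 2.17.1.14, TopHat2 2.0.14, Cufflinks 2.2.1 and Cuffnorm 2.2.1 with builds hg18 and hg19, whereas the study's methods name Salmon, GRCh38 and DESeq2. Which of these made the table is not given in the sources used here. Transcript lengths behind the values are unknown, so read counts were not recovered and the study's DESeq2 test was not run. Depth is known only as relative depth, from the steps between low values, so the precision of low values cannot be given.

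The 11777 of 24108 rows that averaged 1 FPKM or more were fitted as log2(FPKM + 1) in limma 3.58.1 (R 4.3.3). Group was the only term and variances were moderated with a trend on mean level. Adjusted p-values are Benjamini-Hochberg values over these rows. The pseudocount makes fold changes of low genes smaller than they are. A value of 0, which can be a failed estimate, occurred in 173 tested rows. Calls required both an adjusted p below 0.05 and a fold change above 1.5. For individual genes a two-sided exact permutation test was added. The fit was tested on simulated data. There were 17 alternatives: other pseudocounts, filters, scalings and variance models, summed rows, a replicate block and leaving out each sample. Counts over rows that averaged 1 FPKM or more in both groups were added after the values were seen.

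Groups came from the sample labels. Genes and lists were chosen with earlier results of these data known. The naming rule took the 10 genes, ZNF148, each called gene of a list (otherwise its tested gene with the highest mean) and the receptors of the 3 families. Other genes named, including those closest in pattern, were chosen after their values were seen, because the rule gave close patterns only for called growth factor genes. Promoter windows were from RefSeq (GRCh38.p14) and gene positions from GENCODE release 44. They do not come from the build of the table. Figures were drawn with matplotlib 3.10.9.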

Additional observations from a re-analysis of the deposited data

How the results depend on the processing

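The directions of the 8 tested growth factor genes were kept under the alternatives run, except that PGF, which ranged from -0.27 to 0.17 when single samples were left out, turned to 0.17 (adjusted p = 0.490) without shZNF148 replicate 2. Among the receptors FGFRL1 ranged from -0.0073 to 0.14 and turned without shCtr replicate 3 (adjusted p = 0.973). No growth factor gene was called in the reported fit, 2 (PDGFA and ANGPTL4) were called with a pseudocount of 0.1 FPKM, 1 with values rescaled to a total of 1000000, 1 with rows at 0 left out, and 0 to 1 when single samples were left out. The 2 genes past the adjusted threshold became 0 to 3 when single samples were left out and 0 with the replicate block. The 14 called pathway genes became 8 with no filter, 7 with a pseudocount of 5 FPKM, 9 with the block, 0 to 13 when single samples were left out, and 11 over genes that averaged 1 FPKM or more in both groups, an alternative chosen after the values were seen. Over all rows, 216 called higher became 76 with a pseudocount of 5 FPKM, 99 with the block, 423 after rescaling and 3 to 222 when single samples were left out. The 431 called lower became 204 with that pseudocount, 216 with the block, and 26 to 397 when single samples were left out. Rescaling moved the share of calls that were higher from 33.4% to 53.1%. At the adjusted p alone, 643 higher rows became 401 with no filter, 130 with the block, 1199 after rescaling and 3 to 630 when single samples were left out, and 957 lower rows became 271 with the block and 26 to 1101. The causes of these shifts were not tested.

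Same-numbered samples had correlations of their deviations of 0.0010, -0.088 and 0.030, so the replicate numbers were not taken to pair the samples. The joined row with ERBB2 nevertheless stood at 126 and 125 FPKM in replicate 2 of shCtr and shZNF148, and between 20.1 and 24.8 FPKM elsewhere. Whether that row reflects a pairing was not tested. With the replicate block the limma adjusted p of FGFR1 was 0.0586. ZNF148 has no value with a mean of at least 5 FPKM, because it was filtered out, and PDGFB and FGF2 were outside the reported fit. The log2 fold change of ZNF148 ranged from -1.74 to -1.45 when single samples were left out.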

Other observations

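By the root mean square difference of their log2 profiles over the 6 samples, each relative to its shCtr mean, the rows most like FGFR1 were WDR59 (0.0152) and LRP5 (0.0276), a co-receptor of WNT signalling. LRP5 measured 73.0, 72.0 and 66.5 FPKM in shCtr and 54.7, 58.4 and 50.3 FPKM in shZNF148. Those most like PDGFA were EML2 (0.0425) and POLD4 (0.0430). The rows most like ANGPTL4 were less close, CREB3L3 (0.287) and AKR1C2 (0.299). CREB3L3, a transcription factor of lipid metabolism, measured 0.190, 0.174 and 0.180 FPKM in shCtr and 1.96, 20.7 and 2.03 FPKM in shZNF148. Because rows were picked for likeness to ANGPTL4, a peak in shZNF148 replicate 2 follows from the choice and adds no observation. Both CREB3L3 and AKR1C2 were below 1 FPKM in every shCtr sample and reached the filter through the shZNF148 samples alone. These genes were named after their values were seen, over 6 samples, and no p is given.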
